A study of Mus musculus with 12 samples.

Results

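Genes of antigen presentation by MHC class I, 10 in number, were followed through 12 colon RNA libraries of mice, namely the heavy chains H2-K1 and H2-D1, the light chain B2m, the peptide transporter and loading genes Tap1, Tap2 and Tapbp, the immunoproteasome subunits Psmb8, Psmb9 and Psmb10, and the regulator Nlrc5. They were taken by symbol, as a set chosen with earlier results of these data known. All 10 were found among the 54532 genes of each count file. The mice were male C57BL/6, 6 weeks old at arrival with 1 week of adaptation, and 3 from each of the 4 groups were sequenced. The groups held more mice than these, and the methods do not state how the 3 were chosen. The Con group received no DSS and no UA (the labels call it untreated, and the methods give it the vehicle by gavage). The DSS group drank dextran sulfate sodium, a polymer that injures the colon epithelium, at 3% (w/v) for 5 days. The UA+DSS group received the same DSS, with ursolic acid, a plant triterpenoid, by gavage at 200 mg/kg from 1 day before it, and the DSS+UA group the same dose of UA from 3 days after DSS began. The methods count 7 and 4 days of UA in these groups where the discussion counts 9 and 5. Mice are numbered within their group, so DSS 3 stands for the library of replicate 3 in DSS.

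MHC class I molecules show peptides from proteins made inside a cell to CD8 T cells, and a heavy chain reaches the cell surface only with its light chain and a bound peptide. The peptides are cut by the proteasome, carried into the endoplasmic reticulum by the TAP transporter and handed to class I by tapasin. Interferon gamma is known to raise the genes of this route together, through factors that include IRF1 and the transactivator NLRC5, and to exchange the catalytic subunits of the proteasome for those of the immunoproteasome. Epithelium, leukocytes and most other cells of the colon carry class I, so in these bulk samples fewer cells of a type and less RNA per cell cannot be told apart.

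The libraries held 15566216 to 19498383 counts (median 18569669), scaled by TMM factors of 0.871 to 1.09, and values below are CPM (counts relative to the scaled library size). The common biological coefficient of variation was 0.352. All 10 genes were among the 17658 tested, with at least 179 counts in every library. Epithelial, leukocyte and smooth muscle markers were present in all 12 libraries, as a whole piece of colon would give. DSS 2 stood apart in neutrophil markers, whose 5 genes summed to 16930.1 CPM there against 576 and 753 in the other DSS libraries. Hox genes give a score of where along the colon a piece was taken, here 5 genes used toward the rectum minus 6 used toward the caecum, each set averaged as log2 CPM. It was -5.70 to -4.16 in UA+DSS, 0.37 to 3.10 in DSS and 4.11 to 5.06 in DSS+UA, and in Con it was 5.53 in Con 1 but -3.03 and -1.83 in Con 2 and Con 3. Position along the colon and treatment therefore cannot be told apart between UA+DSS and the groups it was compared with. The same holds between DSS+UA and DSS, whose scores did not overlap.

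edgeR called none of the 10 genes between any pair of groups, and DESeq2 called 1, Psmb10 in DSS+UA against DSS. DSS+UA 2 was the highest of all 12 libraries for 9 of the 10 genes, where it was so for 11.1% of all tested genes, and the highest of its group for all 10 (37.6% of all tested genes). The lowest library was DSS 3 for 5 of the 10 (6.58% of all tested genes). Within UA+DSS, replicate 3 was the lowest for all 10 (30.5%), and within DSS, replicate 3 was the lowest for 9 (32.7%). For each of the 10 genes, the fold between the highest and lowest library of its widest group exceeded the fold between the highest and lowest group mean, as for 61.9% of all tested genes. Summed over the 10 genes, the level ran from 2746 CPM in DSS 3 and 2803 in Con 1 to 8470.0 in DSS+UA 2.

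**Figure D1:**
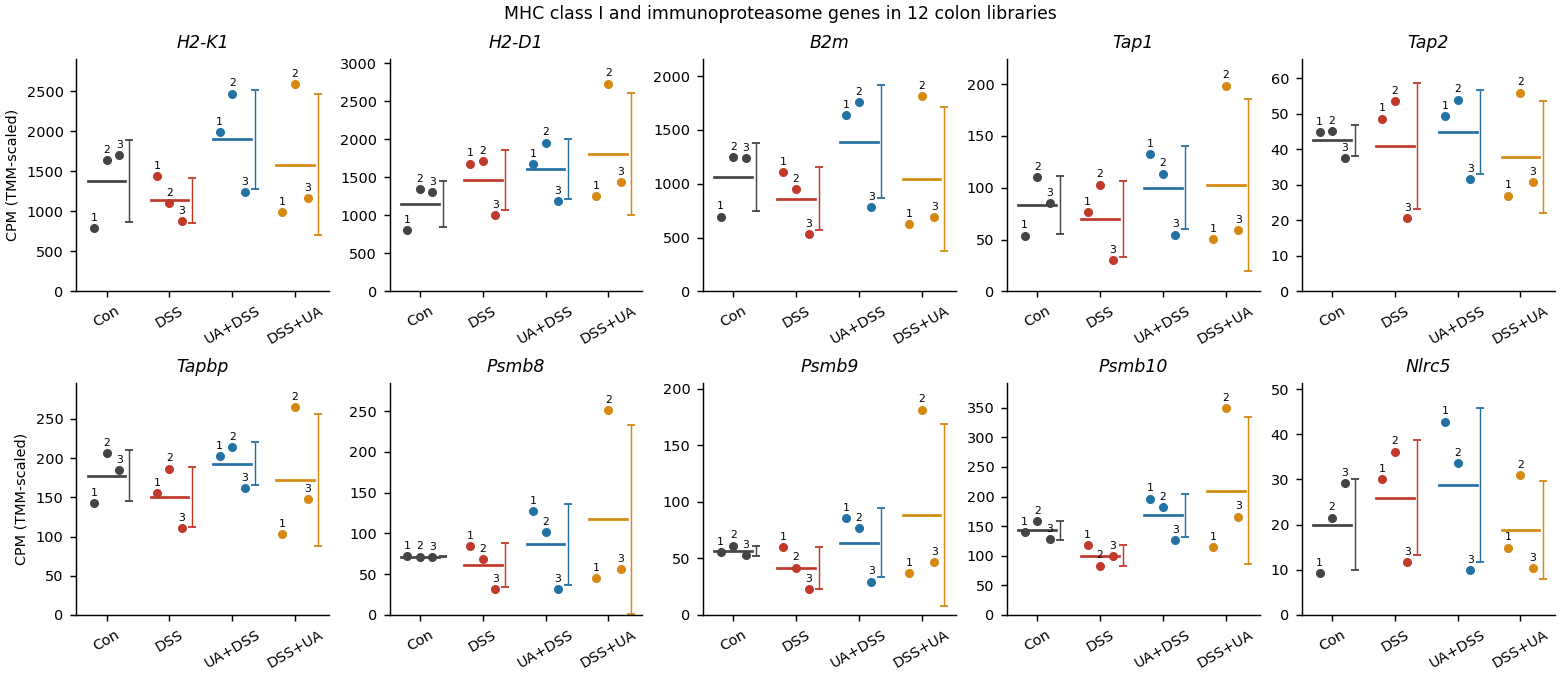
CPM of each of the 10 genes (vertical axis, from 0) in the 12 libraries by group (horizontal axis); points are mice marked with their replicate number, horizontal bars are group means and vertical bars the SD of 3 mice. DSS+UA 2 is the highest point in 9 of the 10 panels, and in every panel the widest group spreads over a larger fold than the group means do, which does not hold for each group, as for Psmb8 in Con (1.02-fold).

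H2-K1 and H2-D1 encode the classical class I heavy chains of C57BL/6 mice, which bind the peptide. H2-K1 (ENSMUSG00000061232, GRCm38 chr17:33996017-34000347, minus strand) was at 788, 1635 and 1705 CPM in Con 1 to 3, at 1437, 1103 and 878 in DSS, at 1989.6, 2470.4 and 1241 in UA+DSS, and at 992, 2593 and 1164 in DSS+UA. All 4 groups overlapped, and Con 1 was the lowest library. H2-D1 (ENSMUSG00000073411, chr17:35262730-35267499, plus strand) was at 801, 1349 and 1307 CPM in Con, at 1682, 1709 and 1007 in DSS, at 1678, 1958 and 1185 in UA+DSS, and at 1254, 2733 and 1442 in DSS+UA. It was the only one of the 10 genes with its lowest group mean in Con, and there too Con 1 was the lowest library. Of the stretches of 50 bases in their exons, 9.63% of H2-K1 and 12.8% of H2-D1 also occur in other genes, mostly class I genes, so their counts are uncertain to that extent.

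B2m (ENSMUSG00000060802, chr2:122147686-122153083, plus strand) encodes beta-2 microglobulin, the light chain that every class I heavy chain needs. It was at 695, 1246 and 1237 CPM in Con, at 1105, 947 and 534 in DSS, at 1634, 1757 and 786 in UA+DSS, and at 628, 1810.4 and 692 in DSS+UA. UA+DSS 1, UA+DSS 2 and DSS+UA 2 were the 3 highest libraries, while UA+DSS 3, DSS+UA 1 and DSS+UA 3 lay below Con 2 and Con 3. The DSS mean was 862 ± 295 CPM (SD, n = 3) and the UA+DSS mean 1392 ± 529, and these groups overlapped.

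Tap1 and Tap2 encode the chains of the transporter that moves peptides into the endoplasmic reticulum. Tap1 (ENSMUSG00000037321, chr17:34187553-34197225, plus strand) was at 53.9, 110.4 and 85.5 CPM in Con, at 76.4, 103 and 30.2 in DSS, at 132, 114 and 54.7 in UA+DSS, and at 50.7, 199 and 59.2 in DSS+UA. Its highest library, DSS+UA 2, stood 6.59-fold above its lowest, DSS 3. Tap2 (ENSMUSG00000024339, chr17:34203527-34216321, plus strand) varied less, with 44.9, 45.0 and 37.6 CPM in Con, 48.7, 53.5 and 20.7 in DSS, 49.3, 54.0 and 31.6 in UA+DSS, and 27.0, 56.0 and 30.8 in DSS+UA. Its highest and lowest libraries were again DSS+UA 2 and DSS 3, 2.71-fold apart. Tapbp (ENSMUSG00000024308, chr17:33915899-33929292, plus strand) encodes tapasin, which holds class I to the transporter until a peptide is bound, and was at 143, 206 and 185 CPM in Con, at 155, 187 and 111 in DSS, at 203, 214 and 162 in UA+DSS, and at 103, 265 and 148 in DSS+UA. DSS+UA held both its lowest and its highest library. Of the stretches of 50 bases, 11.6% in Tap2 and 23.2% in Tapbp also occur in other genes, mostly antisense ones, as do 11.9% in Psmb8, and whether the counting used strand is not given in the sources used here.

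Psmb8, Psmb9 and Psmb10 encode the catalytic subunits that replace Psmb5, Psmb6 and Psmb7 in the immunoproteasome. Psmb8 (ENSMUSG00000024338, chr17:34197721-34201454, plus strand) was at 72.1, 71.7 and 70.5 CPM in Con, at 84.3, 68.1 and 31.5 in DSS, at 128, 101 and 31.7 in UA+DSS, and at 45.0, 251.3 and 55.9 in DSS+UA. The Con mice lay within 1.02-fold of each other, while the other groups spread over 2.67-fold in DSS, 4.02-fold in UA+DSS and 5.59-fold in DSS+UA. Psmb9 (ENSMUSG00000096727, chr17:34181987-34187764, minus strand) followed the same order of libraries within UA+DSS and DSS+UA, with 55.7, 61.3 and 52.7 CPM in Con, 59.8, 41.8 and 22.5 in DSS, 85.6, 76.9 and 29.5 in UA+DSS, and 37.2, 181 and 46.5 in DSS+UA. Its highest library stood 8.06-fold above its lowest, the widest range of the 10 genes.

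Psmb10 (ENSMUSG00000031897, chr8:105935735-105938444, minus strand) was the only one of the 10 genes with groups that did not overlap. It was at 141, 159 and 129 CPM in Con, at 118, 83.5 and 99.7 in DSS, at 197, 182 and 126 in UA+DSS, and at 114, 350.1 and 166 in DSS+UA. Every DSS library lay below every Con library and below every UA+DSS library, as for 20.1% and 21.1% of all tested genes in those directions. Neither difference passed the test, with a log2 fold change of -0.51 ± 0.34 (SE) in DSS against Con and 0.74 ± 0.35 in UA+DSS against DSS (edgeR adjusted p = 0.288 and 0.151).

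Nlrc5 (ENSMUSG00000074151, chr8:94434356-94527272, plus strand) encodes the transactivator of class I genes. It was at 9.26, 21.5 and 29.1 CPM in Con, at 30.02, 36.2 and 11.7 in DSS, at 42.8, 33.5 and 9.89 in UA+DSS, and at 14.9, 30.9 and 10.4 in DSS+UA. It was the only one of the 10 genes whose highest library was UA+DSS 1 and not DSS+UA 2, and UA+DSS 3 lay near the lowest level, 4.33-fold below UA+DSS 1.

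Psmb9, Tap1, Psmb8 and Tap2 lie side by side in the class II part of the MHC, and Tap1 and Psmb9 are read in opposite directions from the same stretch, so that their RefSeq promoter windows (250 bases before to 50 after the start, GRCm38.p6) share 275 bases. Windows were given for 8 of the 10 genes, and they were searched on both strands for the core of the interferon-stimulated response element (ISRE) and for CCAAT. The ISRE core was searched as 1 fixed pattern of letters, so that other forms of the element would be missed. That pattern stood in 1 of the 8 (B2m, at position -139) against 3.44% of 32851 windows, and CCAAT in 6 against 37.4%. The windows of H2-K1 and H2-D1 did not match the ISRE pattern, which does not show that they lack an ISRE. The CCAAT matches of Tap1 and Psmb9 are the same bases of their shared stretch, so the 6 are not separate sites. The motifs do not overlap each other in these windows. Shown are the 250 bases before the start of B2m, for its ISRE match, and of Tap1 because Psmb9 shares it, 5′ to 3′ on the gene's strand with the matches in capitals (chr2:122147437-122147686 for B2m and chr17:34187306-34187555 for Tap1, both on the plus strand).
B2m: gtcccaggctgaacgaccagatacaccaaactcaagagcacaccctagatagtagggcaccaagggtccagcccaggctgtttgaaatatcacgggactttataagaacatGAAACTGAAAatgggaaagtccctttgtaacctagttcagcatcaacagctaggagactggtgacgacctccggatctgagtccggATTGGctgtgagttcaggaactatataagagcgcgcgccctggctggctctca
Tap1: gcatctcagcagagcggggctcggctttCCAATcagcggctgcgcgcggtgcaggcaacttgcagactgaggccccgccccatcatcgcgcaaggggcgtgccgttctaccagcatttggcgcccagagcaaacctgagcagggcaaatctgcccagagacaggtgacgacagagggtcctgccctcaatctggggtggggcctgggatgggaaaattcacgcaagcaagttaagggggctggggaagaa
The capitals mark GAAACTGAAA and the reverse complement of CCAAT in B2m and CCAAT in Tap1. A match is a run of letters and was not tested as a bound site.

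Per kilobase of the principal mRNA, the mean level over the 12 libraries was highest for B2m (1267 CPM per kb), followed by H2-K1 (926) and H2-D1 (718). Psmb10 (118 CPM per kb) and Tapbp (59.8) came next, then Psmb8 (51.8), Psmb9 (46.3), Tap1 (30.2), Tap2 (12.1) and Nlrc5 (3.08). Each neighbour in this order was above the next in 10 to 12 of the 12 libraries, except that Psmb8 was above Psmb9 in 9. The steps from B2m to H2-K1, from H2-D1 to Psmb10, from Tap1 to Tap2 and from Tap2 to Nlrc5 held in all 12.

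The comparison of DSS with Con asks which genes moved in colitis. Of the 10 genes, 8 were lower and 2 higher in DSS, with a median log2 fold change of -0.24, and none was called by edgeR, where 26.5% of all tested genes were. None had an unadjusted p under 0.05, and DESeq2 and limma-voom also called 0. The log2 fold changes ran from -0.51 (Psmb10) to 0.38 (Nlrc5), with H2-K1 at -0.27, H2-D1 at 0.35, B2m at -0.30, Tap1 at -0.25, Tap2 at -0.05, Tapbp at -0.24, Psmb8 at -0.22 and Psmb9 at -0.45. The 95% intervals were wide, from -1.32 to 0.73 for B2m and from -1.78 to 0.87 for Psmb9, so that a 2-fold change of B2m downward lies inside them and a 2-fold change upward does not. Without DSS 3, the lowest DSS library, 5 of the 10 were higher and 5 lower (median 0.02), and without Con 1, the lowest Con library for 6 of the 10, the median was -0.42.

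The comparison of UA+DSS with DSS asks what UA given from before the injury altered. All 10 genes were higher in UA+DSS, with a median log2 fold change of 0.51, against a median of -0.02 over all tested genes. None was called by edgeR, DESeq2 or limma-voom, where edgeR called 18.7% of all tested genes, and none had an unadjusted p under 0.05. The largest differences were those of Psmb10 (0.74), H2-K1 (0.74, 95% interval -0.20 to 1.68) and B2m (0.69, -0.34 to 1.72), and the smallest those of H2-D1 and Tap2 (0.13 each). Without DSS 3, 7 of the 10 were higher (median 0.18), and without UA+DSS 3 all 10 were (median 0.86). With the position score as a covariate, 6 were higher and 4 lower, with a median of 0.07.

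The comparison of DSS+UA with DSS asks the same of UA given after the injury had begun. Here 8 of the 10 genes were higher and 2 (Tap2 and Nlrc5) lower in DSS+UA, with a median log2 fold change of 0.39. None was called by edgeR, where 7.54% of all tested genes were, and 1 had an unadjusted p under 0.05. That gene was Psmb10, with a log2 fold change of 1.06 ± 0.35 (SE) and an edgeR adjusted p of 0.0749. DESeq2 called it (log2 fold change 1.06, DESeq2 adjusted p = 0.0278), as did edgeR without DSS+UA 1 (1.38, edgeR adjusted p = 0.0395), and limma-voom called 0 of the 10. Without DSS+UA 2 the 7 other genes that had been higher took the other direction, so that 9 of the 10 were lower in DSS+UA than in DSS, with a median of -0.32, and only Psmb10 was higher (0.44). Tap2 and Nlrc5 were lower with and without that library. With the position score as a covariate, 8 of the 10 were higher in DSS+UA than in DSS (median 0.64) and none was called.

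In UA+DSS against Con all 10 genes were higher (median log2 fold change 0.27) and none was called, where edgeR called 0.00566% of all tested genes. In DSS+UA against Con 6 were higher and 4 lower (median 0.25) and none was called, where 18.1% of all tested genes were. UA+DSS against DSS+UA, which is also the difference between both effects of UA against DSS, gave 5 higher and 5 lower (median 0.06) and no call, where 16.8% of all tested genes were called. In these 3 comparisons none of the 10 had an unadjusted p under 0.05, and DESeq2 and limma-voom called 0. The comparisons share groups, so their values for a gene are not independent of each other. Without DSS+UA 2, 9 of the 10 were lower in DSS+UA than in Con (median -0.50), and all 10 were higher in UA+DSS than in DSS+UA (median 0.69).

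**Figure D2:**
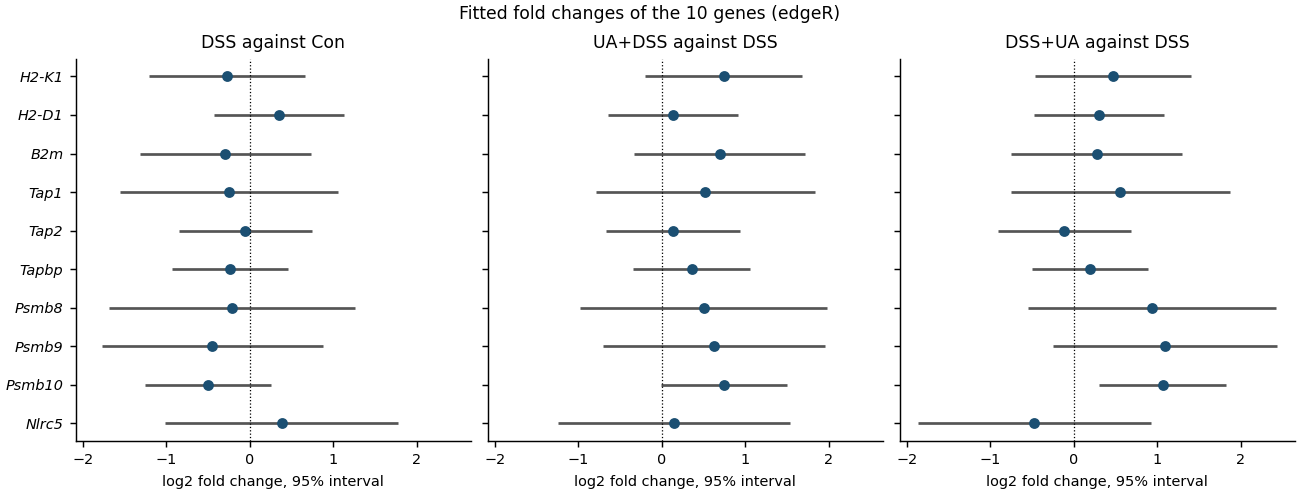
Log2 fold change (horizontal axis) of each of the 10 genes in 3 comparisons, with points at edgeR's estimate and lines for its 95% interval. In each panel the intervals reach 0 except for Psmb10 in DSS+UA against DSS.

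Leukocyte markers rose in DSS, where none of the 10 genes was called. The summed level of 5 pan-leukocyte markers (Ptprc, Laptm5, Coro1a, Cd53 and Arhgdib) was 75.7 to 136 CPM in Con, 399.8 to 2079 in DSS, 124 to 294 in UA+DSS and 309 to 418 in DSS+UA. All 5 rose in DSS against Con and all 5 fell in UA+DSS against DSS (edgeR), while the sum of the 10 class I and immunoproteasome genes was 2803 to 4905 CPM in Con and 2746 to 4796 in DSS. With the position score as a covariate, 0 of these 5 were called in UA+DSS against DSS. Of the 6 T cell markers, 4 rose in DSS against Con, and of the 5 neutrophil markers all 5 did, against 13.9% of all tested genes. The summed level of 10 epithelial markers was 9058 to 21741.0 CPM in Con, 3591 to 9783 in DSS, 18399 to 23458 in UA+DSS and 8630 to 14213 in DSS+UA. Muc2 and Epcam among the 10 fell in DSS against Con (12.6% of all tested genes did). DSS+UA 2, the highest library for 9 of the 10 genes, had 388 CPM of leukocyte markers, between its group mates, 14213 CPM of epithelial markers, above them, and 49.1 CPM of 5 NK cell markers against 6.11 and 5.21 in DSS+UA 1 and 3. Its macrophage and monocyte markers summed to 884 CPM against 308 and 351 in these mice, and its dendritic cell markers to 33.3 CPM against 17.5 and 17.02. Its T cell markers were also above theirs, at 66.9 CPM against 50.5 and 23.5. Other markers were lower in DSS+UA 2 than in both mice. Those of neutrophils summed to 124 CPM against 608 and 669, and those of B cells to 51.4 CPM against 176 and 105. UA+DSS 1, the highest library for Nlrc5, had 99.7 CPM of NK cell markers, and UA+DSS 2 had 44.0. In both UA+DSS 1 and DSS+UA 2 the NK cell sum was mostly Gzma. Ncr1, Klrb1c, Eomes and Prf1 had at most 12, 27, 26 and 54 counts in any library. The part of these cells in the levels of the 10 genes was not tested.

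**Figure D3:**
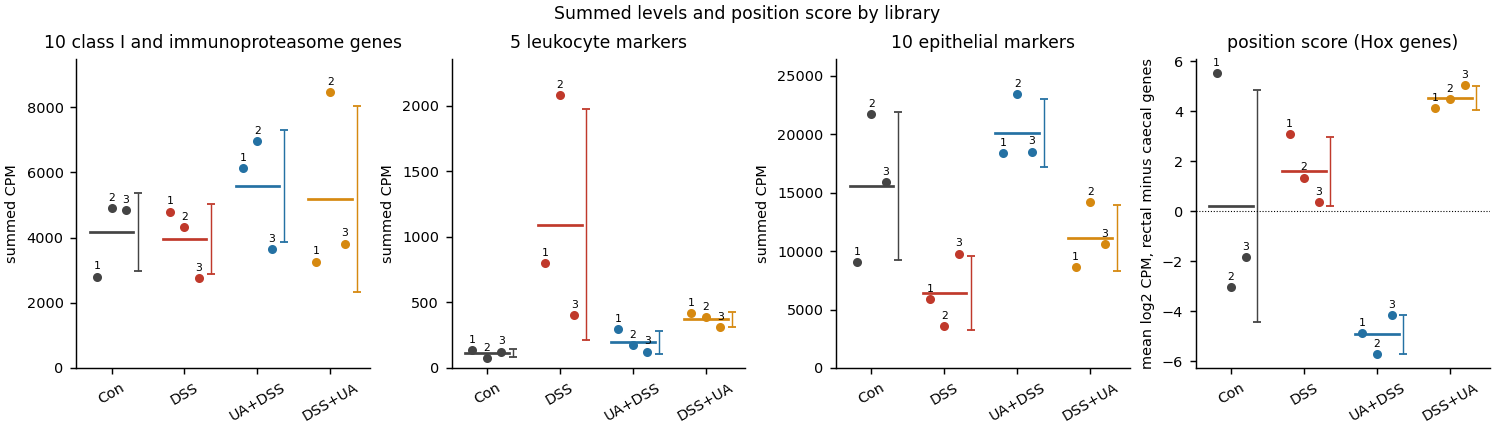
Summed CPM of the 10 genes, of 5 leukocyte markers and of 10 epithelial markers, and the position score (difference of mean log2 CPM), by group, with points for mice marked by replicate number, group means and SD of 3 mice. Leukocyte markers are at 399.8 to 2079 CPM in DSS, which overlaps DSS+UA (309 to 418), while the sum of the 10 genes is 2746 to 4796 CPM there and reaches 8470.0 CPM in DSS+UA 2.

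Over the 12 libraries, each of the 10 genes went with the mean of the standardized log2 CPM of all 10, with a Pearson r of 0.75 (Psmb10) to 0.97 (Tap1), a description that includes the gene itself. Among the 5 other genes most like that mean were Igtp (r = 0.96), Ifi47 (0.95), H2-T22 (0.95) and Zbp1 (0.92). Igtp, a GTPase that interferon gamma is known to induce, was at 18.7, 62.3 and 49.7 CPM in Con, at 36.4, 32.2 and 11.3 in DSS, at 94.2, 57.4 and 24.2 in UA+DSS, and at 17.1, 114 and 23.6 in DSS+UA. Its highest library was DSS+UA 2 and its lowest DSS 3, as for Tap1, Psmb8 and Psmb9. These r rest on libraries that share depth and groups, and no p is given. H2-T22 shares 53.5% of its stretches of 50 bases with other genes, so its counts are uncertain.

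The regulators of class I were taken as 20 genes of interferon signalling and of the class I enhanceosome, of which 19 were tested. In DSS against Con, 5 rose and 1 fell (13.9% and 12.6% of all tested genes did), with the other 13 not called. Ifnar2, a chain of the type I interferon receptor, rose by a log2 fold change of 2.28 ± 0.36 (SE, edgeR adjusted p = 0.00300) and Jak1, a kinase of interferon receptors, by 0.88 ± 0.16 (0.00431), with Ifnar1, Nfkb1 and Rela the other 3. Rfxank, a subunit of the RFX complex at MHC promoters, fell by 1.09 ± 0.17 on the log2 scale (edgeR adjusted p = 0.00272), with 24.1, 23.02 and 21.4 CPM in Con and 10.01, 12.1 and 10.1 in DSS. Of its stretches of 50 bases, 31.0% also occur in other genes, mostly in Nr2c2ap on the other strand, so its counts are uncertain. In UA+DSS against DSS, Rfxank rose (0.54) and Ifnar2, Jak1 and Rela fell, with the other 15 not called. In DSS+UA against DSS, Rfxank rose (0.61) and Ifnar1 and Ifnar2 fell, with the other 16 not called. Of all tested genes, edgeR called 18.7% and 7.54% in these 2 comparisons, both directions together. Of the 20 alternatives, 16 ended the Rfxank call in each of these comparisons, 15 that of Jak1 and 13 that of Ifnar1, while 2 to 6 ended those of Ifnar2 and Rela, and each was lost with the position score as a covariate. In DSS against Con the call of Ifnar1 was lost without Con 1 or without Con 2, and those of Ifnar1 and Rela with only these 2 groups in the fit. Irf1 was not called in any comparison. Ifng was too low to be tested, at 0.0 to 0.928 CPM, with its highest value in DSS+UA 2.

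The immunoproteasome was also set against the subunits it replaces, as the log2 ratio of counts per mRNA length of Psmb8 to Psmb5, Psmb9 to Psmb6 and Psmb10 to Psmb7, averaged over the 3 pairs. This ratio was -0.50, -0.63 and -0.73 in Con, -1.06, -1.22 and -1.94 in DSS, -0.27, -0.17 and -1.40 in UA+DSS, and -1.87, 0.01 and -1.55 in DSS+UA. All 3 DSS mice lay below all 3 Con mice, and UA+DSS 3 and DSS+UA 1 and 3 lay with the DSS mice. The DSS mean was 0.579 times the Con mean (log2 difference -0.79, two-sided exact permutation p = 0.1, the smallest that 3 against 3 mice allow, and 0.3 after Benjamini-Hochberg adjustment over 12 tests). UA+DSS differed from DSS by 0.79 (exact permutation p = 0.3, adjusted 0.514) and DSS+UA from DSS by 0.27 (p = 0.8, adjusted 0.8), and the last became -0.31 without DSS+UA 2. Of the single pairs, Psmb10 to Psmb7 also separated DSS (-0.26 to 0.07) from Con (0.50 to 1.72) and from UA+DSS (0.48 to 1.05), each with an exact permutation p of 0.1 and 0.3 after adjustment. Psmb8 to Psmb5 separated DSS (-2.58 to -1.25) from Con (-1.12 to -0.95) with the same exact permutation p, and Psmb9 to Psmb6 did not (0.2). In Con 1, which set the upper end of Con, Psmb7 was at 37.8 CPM, against 78.8 and 80.3 in Con 2 and 3. In DSS against Con the denominators had log2 fold changes of 0.37 (Psmb5), 0.0083 (Psmb6) and 0.51 (Psmb7), none called by edgeR. The lower ratio in DSS therefore includes higher estimates of Psmb5 and Psmb7 and not only lower ones of the immunoproteasome subunits. Psmb5 shares 54.1% of its stretches of 50 bases with other genes, so the first ratio is uncertain.

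**Figure D4:**
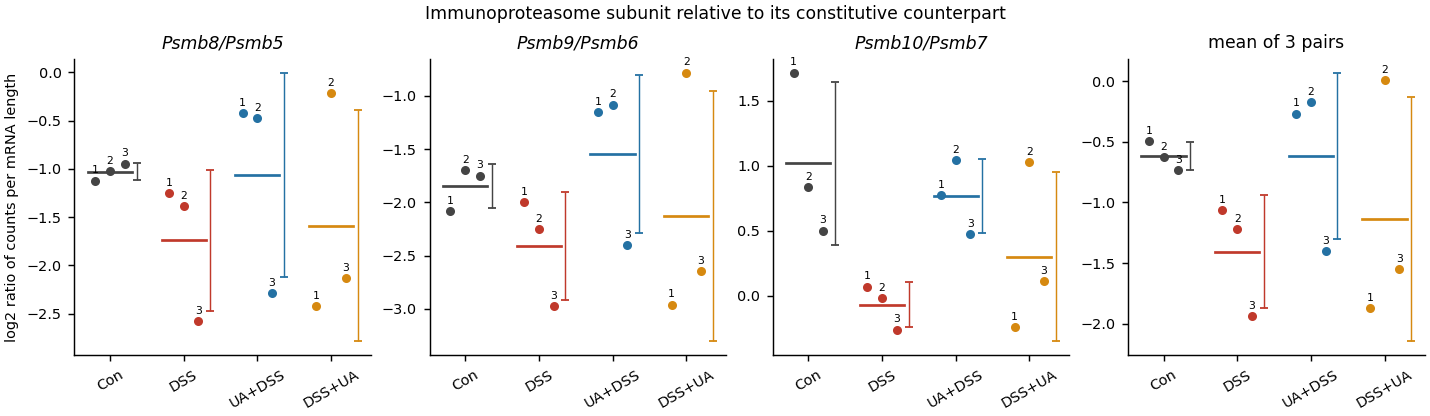
Log2 ratio of counts per mRNA length (vertical axis) of each immunoproteasome subunit to its constitutive counterpart and their mean, by group, with points for mice marked by replicate number, group means and SD of 3 mice. In the mean of 3 pairs the DSS mice lie between -1.94 and -1.06, below the Con mice at -0.73 to -0.50.

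The 14 constitutive subunits of the 20S proteasome, the core particle that degrades proteins in every cell, were compared in the same way. In DSS+UA against Con 13 of 14 rose and 0 fell (9.13% and 8.95% of all tested genes did), with a median log2 fold change of 0.76, while Psmb8 (0.72), Psmb9 (0.64) and Psmb10 (0.56) lay in the same range and were not called. Markers of other cells moved in the same comparison. Those of smooth muscle and fibroblasts summed to 439 to 754 CPM in DSS+UA against 806 to 2483 in Con. Of the 5, Myh11 and Des were called lower there and higher in UA+DSS against DSS+UA (7.54% of all tested genes rose in the latter). The 4 endothelial markers summed to 68.7 to 75.2 CPM against 105 to 144, with Kdr called lower, and the part of these cells was not tested. In UA+DSS against DSS+UA 11 of 14 were lower and called (9.23% of all tested genes were), with a median of -0.73. The difference between the sets of subunits was not tested, and their spread differed. Psmb3 was at 99.9, 108 and 107 CPM in Con and at 174, 231 and 199 in DSS+UA, with no overlap (log2 fold change 0.94, edgeR adjusted p = 0.00560), where Psmb8 ran from 45.0 to 251.3 CPM within DSS+UA alone. Against DSS, 14 of 14 were higher in DSS+UA and 2 of them, Psmb2 and Psmb3, were called (2.54% of all tested genes rose), a count that ran from 0 to 13 over the alternatives, with 13 by DESeq2. None was called in DSS against Con, UA+DSS against DSS or UA+DSS against Con by edgeR. With the position score as a covariate 7 of 14 rose in DSS+UA against Con and 0 were called in UA+DSS against DSS+UA, and the latter count was 1 without UA+DSS 2 and 7 without UA+DSS 3. Without DSS+UA 2 or without DSS+UA 3, 8 of 14 rose in DSS+UA against Con.

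**Figure D5:**
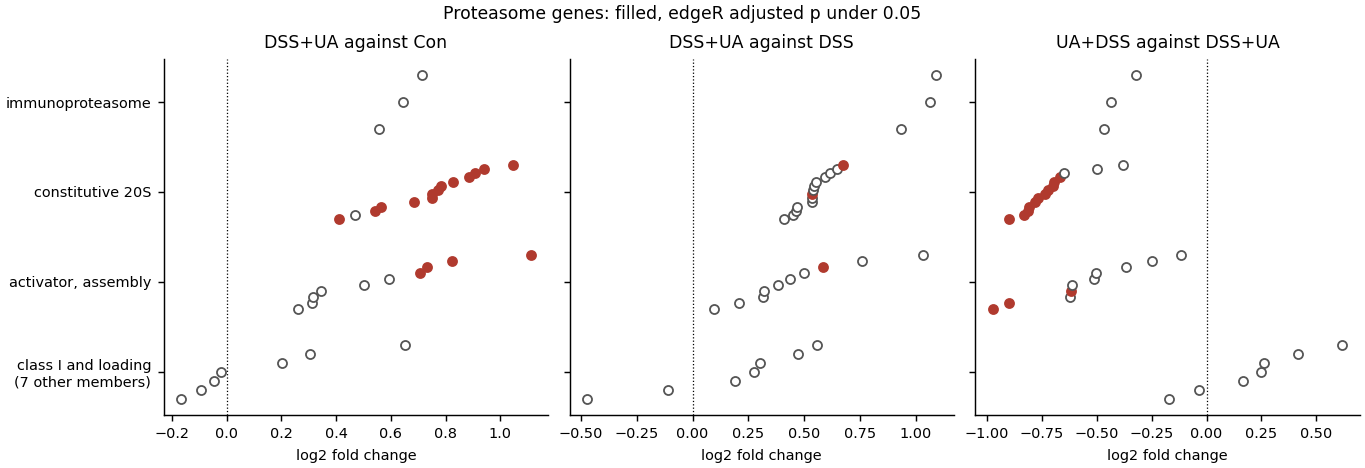
Log2 fold change (horizontal axis) of the 3 immunoproteasome subunits, 14 constitutive 20S subunits, 10 activator and assembly genes and the 7 other class I genes in 3 comparisons, 1 point a gene, filled where edgeR's adjusted p is under 0.05. In DSS+UA against Con 13 of the 14 constitutive subunits are filled and none of the 3 immunoproteasome subunits is.

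Among 10 genes of the proteasome activators and of its assembly, Pomp, Psme3, Psmg1 and Psmg3 rose in DSS+UA against Con (9.13% of all tested genes did). Psme3, a nuclear activator subunit, was the 1 of them that rose in DSS against Con (log2 fold change 1.01 ± 0.24, edgeR adjusted p = 0.0124), where 13.9% of all tested genes did. Psme1 and Psme2, the interferon-inducible activator subunits, were not called in any comparison by edgeR, and DESeq2 called Psme2 in DSS+UA against DSS (DESeq2 adjusted p = 0.0496). Psme2 was at 99.9, 138 and 109 CPM in Con, at 94.9, 91.5 and 54.2 in DSS, at 148, 117 and 82.5 in UA+DSS, and at 94.8, 269.6 and 128 in DSS+UA, so DSS 3 was again the lowest library and DSS+UA 2 the highest. Among 10 further genes of peptide loading and trimming and of folding in the endoplasmic reticulum, 2 rose in DSS against Con (13.9% of all tested genes did), Calr (0.93 ± 0.23, edgeR adjusted p = 0.0149) and Hspa5 (1.30 ± 0.25, 0.00544), both chaperones of the endoplasmic reticulum with many clients other than class I. In DSS+UA against Con 4 of these 10 rose (9.13% of all tested genes did), Calr, Hspa5, Canx and Lap3. The call of Canx was lost in 13 of 20 alternatives. In DSS against Con, the calls of Psme3 and Calr were lost with only these 2 groups in the fit. The calls in DSS+UA against Con were lost in 13 of 20 alternatives for Psmg3 and in 9 for Psmg1, the position score, library size alone and no filter among them, and for Psme3 without DSS+UA 3.

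Of 17 other class I heavy chains, 16 were tested, and 2 rose in UA+DSS against DSS (8.21% of all tested genes did). H2-T23, which encodes the non-classical molecule Qa-1, was at 215, 475 and 432 CPM in Con, at 204, 179 and 124 in DSS, at 499, 854 and 386 in UA+DSS, and at 98.5, 412 and 146 in DSS+UA. It rose in UA+DSS against DSS by a log2 fold change of 1.78 ± 0.53 (edgeR adjusted p = 0.0394), with every UA+DSS library above every DSS library. H2-Q2 rose there as well, by 2.31 ± 0.71 (edgeR adjusted p = 0.0465), from 21.98, 72.9 and 30.4 CPM in DSS to 257, 263 and 102 in UA+DSS. Both calls were lost when any of the 6 libraries of these groups, Con 3 or DSS+UA 3 was left out and with the position score as a covariate, and H2-T23 shares 14.5% and H2-Q2 16.1% of their stretches of 50 bases with other genes. H2-T3, chosen after its values were seen, encodes the thymus leukaemia antigen, which is known from intestinal epithelium, and was at 0.724, 61.1 and 34.8 CPM in Con, at 0.0481, 16.7 and 3.54 in DSS, at 83.2, 137 and 60.6 in UA+DSS, and at 0.0527, 0.742 and 4.05 in DSS+UA. It was the 1 heavy chain of 16 called between UA+DSS and DSS+UA (edgeR adjusted p = 0.0479), where 16.8% of all tested genes were. That call was lost in 13 of 19 alternatives, among them whichever library of these 2 groups was left out. With the position score as a covariate the log2 fold change of H2-T3 was -1.45 in place of 5.85. Con 1, with a position score near those of DSS+UA, was the lowest Con library for it. Within DSS+UA, replicate 3 had both the highest position score (5.06) and the highest H2-T3 level (4.05 CPM). The part of position in the levels of H2-T3 was not tested.

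The receptors that read class I sit on leukocytes. The list of 14 genes also held Pilra and Lilrb4a, receptors of leukocytes for which binding of class I is not established. Of the 14 genes 10 were tested, and 6 rose in DSS against Con (13.9% of all tested genes rose). These were Pirb, Lilrb4a, Pilra, Klra2, Cd8b1 and Klrc1. Of the stretches of 50 bases, 34.0% of Pirb, 47.2% of Lilrb4a, 20.8% of Pilra and 38.6% of Klrc1 also occur in other genes. The genes that share those of Pirb include Pira2 and Lilra6, so the counts of these receptors are uncertain. The calls of Lilrb4a and Klra2 were lost with only these 2 groups in the fit, and that of Lilrb4a also by limma-voom. Pirb, an inhibitory receptor of myeloid cells and B cells, rose by a log2 fold change of 4.63 ± 0.76 (edgeR adjusted p = 0.00346) and fell in UA+DSS against DSS by 3.31 ± 0.71 (edgeR adjusted p = 0.0154), the latter call being lost without UA+DSS 2, without UA+DSS 3 and with the position score as a covariate. The summed level of the 14 genes was 12.3 to 22.2 CPM in Con and 78.7 to 688 in DSS, the highest in DSS 2.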

How the data were processed

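RNA of 12 mouse colons was sequenced from TruSeq libraries. The authors deposited unnormalized counts of reads, whole numbers, for 54532 Ensembl genes. FastQC, HISAT2, Cuffdiff and GRCm38 are named in the submitters' processing notes. Counting is credited to HISAT2 in the methods, and a separate counter, the strand setting and the treatment of reads with several matches were left unstated, that is, not given in the sources used here. A name in GENCODE was lacking for 123 genes, with 0.0297% of the counts.

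Low genes were removed with filterByExpr, which left 17658 (99.8% of the counts), and TMM scaling and a quasi-likelihood fit with robust estimation over all 12 libraries followed (edgeR 4.0.16, R 4.3.3). Benjamini-Hochberg adjustment ran over the tested genes, with a threshold of 0.05, and the script was tested on simulated data. Ratios of counts, after adding 1, were compared by exact permutation tests (Python 3.11.15, scipy 1.17.1). Nothing in the labels says more of the replicates than that they are separate mice, so p-values measure the spread between these samples.

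The members, gene lists and position score were chosen with earlier results of these data known. Beyond the 10 genes, those named are a fixed set of regulators and proteasome subunits, the 3 of each list with the smallest p in DSS against Con, UA+DSS against DSS and DSS+UA against DSS, the 5 most like the members, and others given because a list's count was small, which were picked with their values in view. The alternatives comprised DESeq2 1.42.0, limma-voom (limma 3.58.1), library size alone, no filter, at least 10 counts in every sample, the replicate number as a block, the position score as covariate, a fit of only the 2 groups, and each library left out in turn. Counts of 20S subunits under them were added after seeing the data. Replicate numbers did not pair the mice (correlations of deviations from -0.22 to 0.19). Results of 1 regulator, which the counts of its list include, and of a motif searched for are not reported here.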

Additional observations from a re-analysis of the deposited data

Results flagged for a closer look

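For these genes the effects of UA against DSS differed between UA+DSS and DSS+UA, by edgeR's test of UA+DSS against DSS+UA, which is the difference of both effects. None of the 10 class I and immunoproteasome genes is among them. The log2 fold change was -0.73 for Psmb5, -0.72 for Psmb2, -0.67 for Psma3, -0.81 for Psmb6 and -0.90 for Psmb3, all constitutive 20S subunits. It was -0.97 for Psmg2, -0.90 for Psmg1 and -0.62 for Pomp, which assist proteasome assembly. It was 5.85 for the heavy chain H2-T3, chosen after its values were seen. With the position score as a covariate, 0 of the 14 constitutive 20S subunits were called in this comparison. The calls of Psmg2, Psmg1 and Pomp were lost in 5, 4 and 6 of 20 alternatives, and those of Psmb5, Psmb2, Psma3 and Psmb6 in 2, each time including the position score and the fit without UA+DSS 2.

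Calr and Psmg3 were noted because all UA+DSS libraries lay on 1 side of the DSS mean and all DSS+UA libraries on the other, a pattern that was not tested. The UA+DSS mean minus the DSS+UA mean was -326 CPM for Calr and -4.27 CPM for Psmg3. edgeR did not call either gene between UA+DSS and DSS+UA (edgeR adjusted p = 0.103 and 0.0707).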

How the results depend on the processing

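Of 1200 recomputed log2 fold changes of the 10 genes, 1126 kept their direction and were not called, 72 took the other direction and were not called, and 2, both of Psmb10 in DSS+UA against DSS, were called. The cause of these moves was not tested beyond the library or setting named.

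With the position score as a covariate, UA+DSS against DSS became -0.048 for H2-K1, -0.38 for H2-D1, -0.13 for Tap1 and -0.96 for Nlrc5. UA+DSS against Con became -0.055 for H2-K1, -0.0035 for B2m, -0.17 for Tap1, -0.11 for Tapbp and -0.19 for Nlrc5. DSS+UA against Con became 0.39 for B2m, 0.17 for Tapbp and 0.70 for Nlrc5, and UA+DSS against DSS+UA became -0.82 for H2-K1, -0.39 for B2m, -0.28 for Tapbp and -0.89 for Nlrc5. With library size alone, Tap2 in DSS against Con became 0.037 and Tap1 in UA+DSS against DSS+UA 0.067, the latter 0.16 by limma-voom. Without a filter B2m in DSS+UA against Con became 0.013.

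With the replicate number as a block, Tap1 in UA+DSS against DSS+UA became 0.14 and 0 constitutive 20S genes were called raised in DSS+UA against DSS. The block changed no call of the 10 genes. The numbers do not pair the mice, and 5 of 12 libraries correlated best with their own number.

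DESeq2 called 1 of the 10 genes and 13 of the 14 constitutive 20S genes in DSS+UA against DSS. The latter count, 2 in the report, was 0 with library size alone, 0 without a filter, 4 with at least 10 counts in every sample, 0 with the position score and 0 in a fit of only the 2 groups. The constitutive 20S count in DSS+UA against Con was 7 with the position score and 8 in a fit of only the 2 groups, and in UA+DSS against DSS+UA it was 0 with the position score.

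Leaving out 1 library at a time gave these ranges. The count of the 10 genes called in DSS+UA against DSS was 0 to 1 (1 without DSS+UA 1). The constitutive 20S count was 8 to 13 in DSS+UA against Con (8 without DSS+UA 2 or 3), 1 to 12 in UA+DSS against DSS+UA (1 without UA+DSS 2) and 0 to 7 in DSS+UA against DSS (7 without Con 1). The mean immunoproteasome ratio in DSS+UA against DSS was -0.31 (without DSS+UA 2) to 0.64.

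In DSS against Con, Tap1 ran from -0.64 to 0.11, Tap2 from -0.30 to 0.26 and Psmb8 from -0.52 to 0.092, with the highest value of each without DSS 3. For UA+DSS against DSS, H2-D1 ran from -0.080 to 0.31 and Tap2 from -0.19 to 0.37, lowest without DSS 3, and Nlrc5 from -0.26 (without UA+DSS 1) to 0.55. For UA+DSS against Con, Psmb8 ran from -0.099 to 0.68 and Psmb9 from -0.083 to 0.52, lowest without UA+DSS 1, Tap2 from -0.068 (without UA+DSS 2) to 0.28 and Tapbp from -0.017 (without Con 1) to 0.24.

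For DSS+UA against DSS the lowest value of each came without DSS+UA 2. H2-K1 ran from -0.12 to 0.74, H2-D1 from -0.16 to 0.53, B2m from -0.43 to 0.55, Tap1 from -0.39 to 0.96, Tap2 from -0.55 to 0.14, Tapbp from -0.31 to 0.47, Psmb8 from -0.33 to 1.34 and Psmb9 from -0.028 to 1.48. For DSS+UA against Con the lowest also came without DSS+UA 2. H2-K1 ran from -0.35 to 0.47, B2m from -0.68 to 0.26, Tap1 from -0.60 to 0.65, Tap2 from -0.55 to 0.043, Tapbp from -0.50 to 0.23, Psmb8 from -0.50 to 1.12, Psmb9 from -0.43 to 1.02, Psmb10 from -0.022 to 0.87 and Nlrc5 from -0.65 to 0.29. For UA+DSS against DSS+UA the highest came without DSS+UA 2 and the lowest without DSS+UA 1. H2-K1 ran from -0.0014 to 0.80, H2-D1 from -0.40 to 0.23, Tap1 from -0.38 to 0.85, Tapbp from -0.12 to 0.60, Psmb8 from -0.84 to 0.76, Psmb9 from -0.85 to 0.59 and Psmb10 from -0.64 to 0.24.

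Over all genes, edgeR called 4688 in DSS against Con, against 2131 with only the 2 groups in the fit and 2894 without Con 2. It called 3300 in UA+DSS against DSS, against 3 with the position score, 183 without UA+DSS 2 and 4497 by DESeq2. The number was 1331 in DSS+UA against DSS, against 199 with the position score, 25 without DSS+UA 3 and 3126 by DESeq2. There was 1 call in UA+DSS against Con, against 376 by DESeq2 and 4 without UA+DSS 2. There were 3193 in DSS+UA against Con, against 2035 with only the 2 groups and 1062 without DSS+UA 3, and in UA+DSS against DSS+UA 2961, against 0 with the position score, 560 without UA+DSS 2 and 4349 by DESeq2.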
